A study of Mus musculus with 48 samples.

Results

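The nuclear-encoded genes of oxidative phosphorylation were followed here as a set of 41: 16 of complex I, 4 of complex II, 7 of complex III with cytochrome c, 8 of complex IV and 6 of complex V. They were taken as a named list from the table of read counts, which holds 55487 genes, and the rule that names them uses no measured value. The members and the other gene lists were, however, chosen with earlier results of these data known. All 41 were found by symbol, and all 41 were among the 17494 genes with enough reads to be tested. The list is a sample of the pathway, and 37 further nuclear subunits, which were not members, are given as a separate list.

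In oxidative phosphorylation, electrons from NADH enter at complex I and electrons from succinate at complex II. They pass through ubiquinone to complex III, through cytochrome c to complex IV, and there to oxygen. Complexes I, III and IV pump protons across the inner mitochondrial membrane, and complex V, the ATP synthase, uses the gradient to make ATP. Most subunits are encoded in the nucleus and imported, while a small core of complexes I, III, IV and V is encoded in mitochondrial DNA. Growth plate cartilage has no blood vessels, and its cells are known for a strong reliance on glycolysis.

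C57BL/6 mice aged 3 days after birth gave the limb cells. They had been sorted into 3 populations: skeletal stem cells (SSC); the bone, cartilage and stromal progenitors that stem cells give rise to (BCSP); and the precursors of the latter (pBCSP). Both genotypes carried floxed Ptip alleles (Ptipf/f), where Ptip is another name of Paxip1. The group called WT below was Ptipf/f with no Cre, so it is a floxed control, and the group called KO was Ptipf/f;Col2a1-cre. Cre was driven by Col2a1, a gene of cartilage cells, so deletion is tied to cells with a history of Col2a1 activity. RNA was measured in 2 libraries for each population in each genotype, which makes 6 groups. The labels do not say that the 2 replicates came from separate animals, so p-values cover the spread of these samples alone. That spread may be technical. Same-numbered libraries of a genotype varied together across populations (correlation 0.28 to 0.49). The 6 libraries of a genotype may thus hold fewer independent samples, and SEs, intervals and p-values of averages over populations may be too narrow. The floxed exons were not given in the sources used here.

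In all, the 12 RNA libraries held 15495915 to 22670899 counts. Reads fell on 20965 to 23831 genes in 11 libraries and on 13987 genes in the second SSC KO library, which therefore stands apart. Levels below are in CPM, the usual scale of a gene's counts set against the counts of its library, here after TMM scaling by a trimmed mean of log ratios, and a threshold of 0.05 on the adjusted p applies throughout. Paxip1 was measured at 7.25 to 14.6 CPM in the 6 WT libraries. The SSC KO libraries had 0.347 and 0 CPM. Those of pBCSP KO had 0.568 and 0.0904 CPM, and those of BCSP KO 3.48 and 0.791 CPM. The average difference was -4.52 (log2, SE 0.76, edgeR quasi-likelihood test, adjusted p = 0.0396), and every KO library was below every WT library. Over 19 alternative fits the difference of Paxip1 ran from -6.08 to -3.57, and it passed in 8 of them. Of 7 genes of the sorting scheme, 5 could be tested, and none passed between WT populations by edgeR (1 or 2 of them at an unadjusted p under 0.05 in each comparison). Cd200, which marks SSC in the scheme, stood at 289 and 198 CPM in SSC against 27.7 and 25.7 CPM in pBCSP, while BCSP had 132 and 75.3 CPM. Eng, which marks BCSP, stood at 168 and 127 CPM in BCSP against 25.1 to 34.3 CPM in the other WT libraries (BCSP against SSC, edgeR adjusted p = 0.0635). Tek, a marker of endothelium that the sort removes, was at 0.461 and 0.537 CPM in SSC WT, 4.41 and 5.62 CPM in pBCSP WT and 10.6 and 10.1 CPM in BCSP WT. The cartilage genes Col2a1 and Sox9 were measured in all 12 libraries, at 21140 CPM or more and at 1242 CPM or more.

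Chromatin lists were read at the start sites of the members that have a RefSeq start, which were 31 of 41. Ndufa2, Ndufs1, Sdhc, Uqcrc2, Uqcrq, Uqcrb, Cyc1, Cox4i1, Cox6c and Atp5a1 had no entry. H3K4me3, a histone mark of active start sites, had a peak within 1000 bases of the start in all 6 libraries for 31 of 31 members, against 89.3% of the 11891 tested genes with a start. There was 1 H3K4me3 library per group, so genotypes were not tested. The authors' fold enrichment of these peaks had a member median of 16.4, 17.1 and 18.7 in WT SSC, pBCSP and BCSP, and of 18.8, 15.5 and 19.5 in KO. Medians over all genes with a peak were lower in the same lists, at 14.3, 15.8 and 17.5 in WT and 16.6, 13.6 and 18.03 in KO. The lowest member in every list was Atp5d, at 9.06, 11.3 and 11.9 in WT and 10.99, 9.97 and 11.4 in KO.

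**Figure D1:**
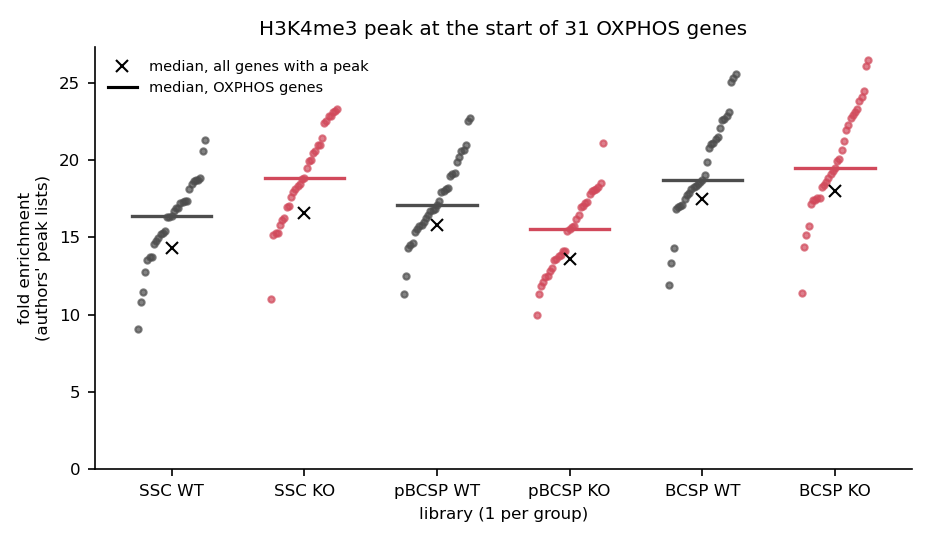
Fold enrichment from the authors' H3K4me3 peak lists (vertical axis, linear from 0) at the starts of 31 oxidative phosphorylation genes (points, sorted within a library) in 6 libraries, 1 per group. Horizontal bars are the median of these genes and crosses the median over all tested genes with a peak; the bar lies above the cross in all 6 libraries, for example at 18.7 against 17.5 in WT BCSP.

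H3K4me1, a mark of enhancers and promoter flanks, had a peak within 1000 bases of the start in all 6 libraries for 28 of 31 members, against 67.9% of all genes with a start. The exceptions were Ndufa1, Uqcrc1 and Cox7b. A peak covered the start base itself in all 6 libraries for 0 members, against 8.37% of genes. H3K27ac is found at promoters and enhancers in use, and it had a peak in at least 1 of 12 libraries for 22 members, against 43.2% of genes, and in both replicates of a group for 4 members, against 15.1%. The H3K27ac lists ranged from 137 to 8572 peaks, so a missing peak there does not show a missing mark.

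The 250 bases upstream of the start are shown for 4 members. Ndufb10 had the highest average KO minus WT difference within complex I among genes with an entry, and Uqcrc1 the lowest within complex III. Cox6a1 carried matches to both motifs searched for in capitals, and Atp5d had the lowest H3K4me3 enrichment. Each window is that of the first start listed for the gene, while peaks were read at every listed start. The window of Atp5d lies inside the annotated span of that gene (chr10:80138698-80145828). Whether these sequences bear on the peaks or the RNA values was not tested. Sequences are from RefSeq on GRCm38.p6, written 5′ to 3′ on the strand of the gene. Capitals mark matches, on either strand, to the motif of nuclear respiratory factor 1 (NRF1, a known activator of respiratory genes), which is GCGCA, any base, then GCGC, or to CCGGAAG (ETS factors). Cox6a1 was chosen after its matches were seen, and the other 3 windows hold neither motif.
Ndufb10, chr17:24724424-24724673, minus strand: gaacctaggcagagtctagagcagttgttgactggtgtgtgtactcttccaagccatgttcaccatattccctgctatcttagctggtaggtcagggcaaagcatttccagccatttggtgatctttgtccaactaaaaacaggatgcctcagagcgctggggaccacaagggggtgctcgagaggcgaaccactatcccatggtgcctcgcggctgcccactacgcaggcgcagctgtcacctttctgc
Uqcrc1, chr9:108936398-108936647, plus strand: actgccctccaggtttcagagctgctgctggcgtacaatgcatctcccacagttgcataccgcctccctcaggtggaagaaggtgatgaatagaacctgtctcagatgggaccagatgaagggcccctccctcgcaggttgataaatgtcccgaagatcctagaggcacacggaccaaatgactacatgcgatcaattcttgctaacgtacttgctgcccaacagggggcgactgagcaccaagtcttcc
Cox6a1, chr5:115348959-115349208, minus strand: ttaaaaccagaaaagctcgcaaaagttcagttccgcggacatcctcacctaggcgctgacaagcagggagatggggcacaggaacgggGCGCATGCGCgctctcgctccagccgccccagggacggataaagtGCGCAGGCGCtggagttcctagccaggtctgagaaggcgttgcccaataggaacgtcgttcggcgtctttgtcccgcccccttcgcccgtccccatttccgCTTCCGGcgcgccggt
Atp5d, chr10:80142025-80142274, plus strand: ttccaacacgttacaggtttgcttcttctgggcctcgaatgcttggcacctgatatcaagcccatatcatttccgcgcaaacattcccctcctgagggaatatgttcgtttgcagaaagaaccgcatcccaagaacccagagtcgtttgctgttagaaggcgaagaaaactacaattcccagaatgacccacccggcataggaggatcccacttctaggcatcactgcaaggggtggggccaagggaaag

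Among the 31 member promoters, the NRF1 letters were found in 5 (Ndufa8, Cox6a1, Sdhd, Ndufs6 and Sdha), against 7.51% of 11891 promoters. ETS letters were found in 3 (Ndufs3, Cox6a1 and Sdhd), against 12.6%. The letters GGGCGG (SP factors) were found in 11, against 57.2%, and ACGTG (hypoxia-inducible factors) in 6, against 21.2%. The motif AAGGTCA of oestrogen-related receptors was found in 0 member windows, against 2.74% of all promoters. Likewise AAGATGG, a motif of the factor YY1, was found in 0, against 4.12%. The TATA box, searched for as TATAAA, was found in 0, against 6.94%. All motifs were searched on both strands of the same 250 bases, and a match is a description of the letters only. Median GC content was 58.8% in members and 59.6% in all. Of the windows with a match to NRF1 or ETS letters, those of Sdhd, Ndufs6, Sdha, Ndufa8 and Ndufs3 overlap a neighbouring gene (Timm8b, Mrpl36, Ccdc127, Morn5 and Kbtbd4).

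As a set, the members were measured at similar levels in all 6 groups. Summed over the 41 genes, the level was 6842 and 6244 CPM in SSC WT and 6533 and 7120 CPM in SSC KO. In pBCSP it was 6175 and 6266 CPM in WT and 6894 and 5607 CPM in KO, and in BCSP 5846 and 6817 CPM in WT and 6608 and 6994 CPM in KO. WT and KO overlapped in SSC, pBCSP and BCSP alike. The lowest library was the second pBCSP KO library and the highest the second SSC KO library. Replicates of a group differed by a median of 0.13 to 0.29 (log2) over members, against 0.35 to 1.30 over all genes tested, with the widest gap in SSC KO for both. The biological coefficient of variation of the members had a median of 0.253 (range 0.233 to 0.343), against 0.530 for all genes. Among 40 cytosolic ribosome genes, a list outside the pathway, the same median was 0.253, and replicates differed by a median of 0.09 to 0.32. The ratio of the highest to the lowest of the 12 libraries was 1.33 (Ndufs3) to 3.06 (Ndufs1), with a median of 1.73.

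**Figure D2:**
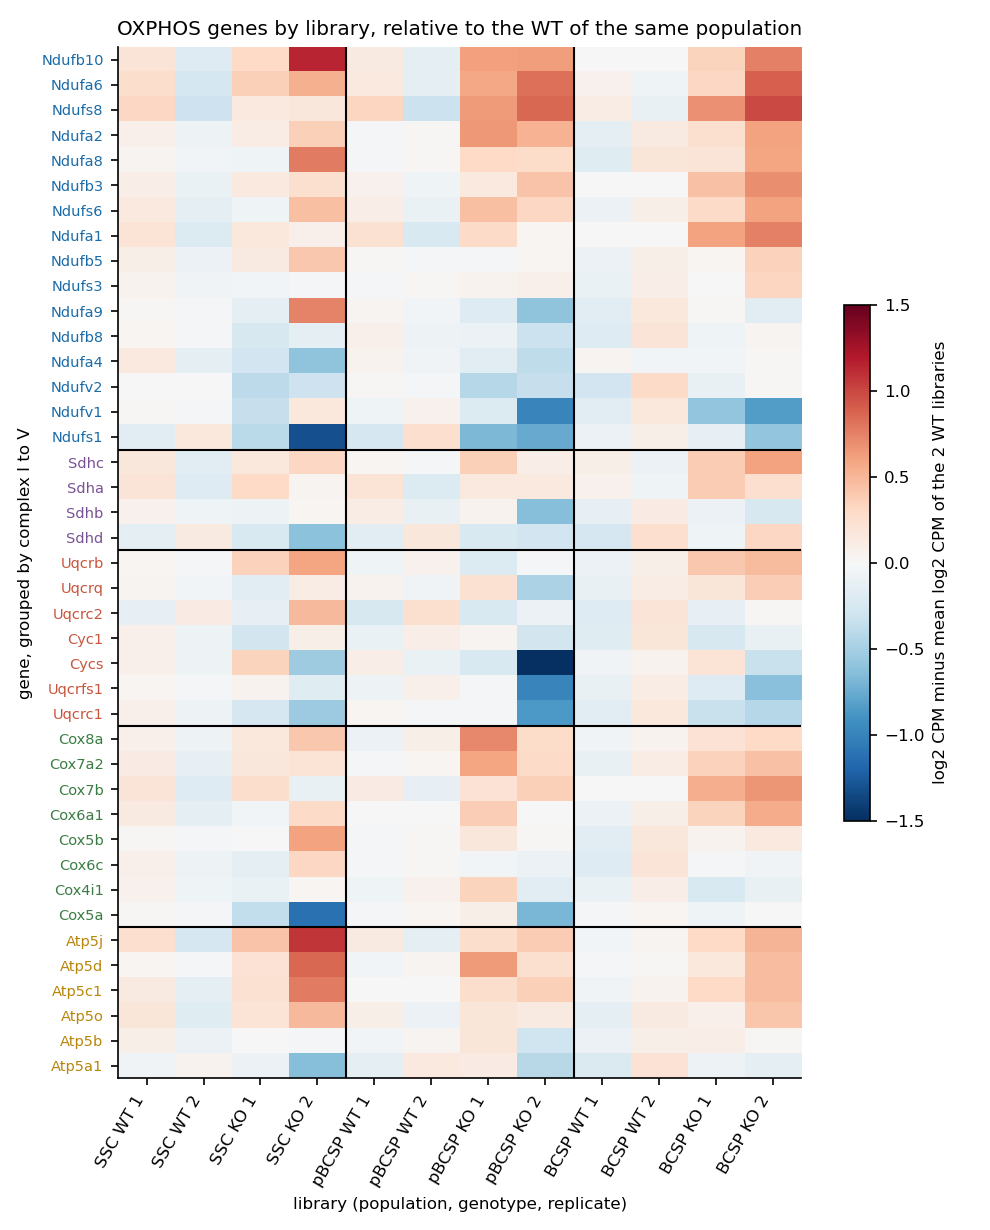
Difference of each of 41 genes (rows, grouped by complex I to V and ordered by average genotype difference) from the mean log2 CPM of the 2 WT libraries of its population, in 12 libraries (columns). Red is above and blue below the WT mean. KO columns hold both colours within complexes I, II and IV. Several of the deepest colours stand in the second KO library of SSC (Ndufb10, Ndufs1) and of pBCSP (Cycs).

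Between KO and WT on average over the 3 populations, 0 of 41 members passed the threshold by edgeR, where 1.17% of all genes passed. At an unadjusted p under 0.05 there were 12 members, against 19.6% of all genes, and DESeq2 passed 2 members, Ndufa6 and Ndufb10, both higher, against 6.01% of all genes that it passed as higher. The smallest adjusted p of a member by edgeR was 0.111. The member median was 0.16 (log2), with 24 members above 0, and the median of all genes was -0.09. Without the second SSC KO library the member median was 0.06, without the second BCSP KO library 0.10, and without any other 1 library 0.12 to 0.18. For 39 of 41 members the 95% interval of the average difference lay within 2-fold in either direction, with Ndufb10 and Ndufs1 the exceptions. It did so for 27.5% of all genes and for 39 of 40 cytosolic ribosome genes. In 4 members every KO library was above every WT library (Ndufa2, Ndufb10, Cox7a2 and Atp5j), against 3.08% of all genes, and in 1 member (Ndufs1) every KO library was below, against 1.98%. Medians by complex were 0.23 for I (with Ndufa4, as listed), 0.03 for II, -0.12 for III with cytochrome c, 0.22 for IV and 0.33 for V.

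**Figure D3:**
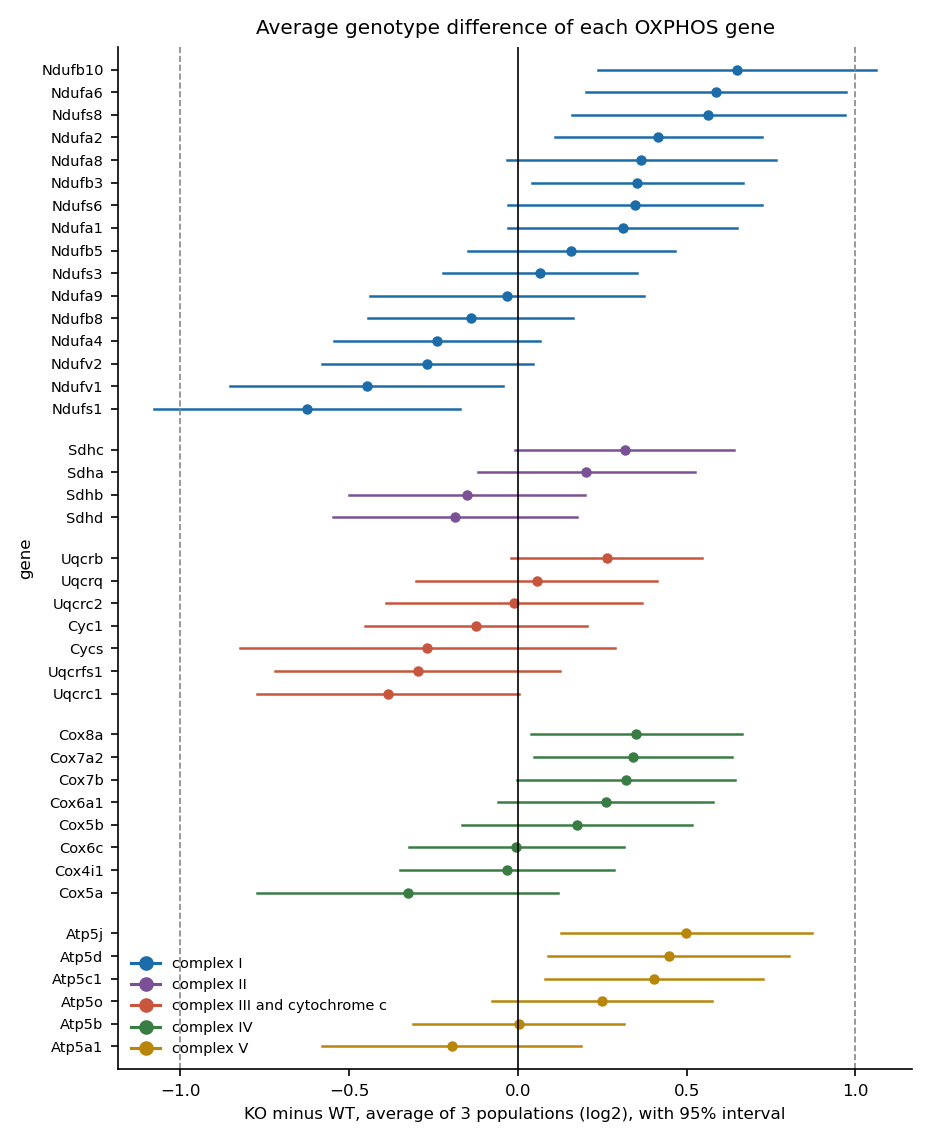
Average KO minus WT difference over the 3 populations (log2, horizontal axis) with its 95% interval from edgeR for 41 genes, coloured by complex; dashed lines mark 2-fold. Estimates run from -0.62 (Ndufs1) to 0.65 (Ndufb10), and 39 intervals lie between the dashed lines.

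Complex I takes electrons from NADH. Its peripheral arm holds the core subunits that carry flavin and iron-sulphur clusters, and accessory subunits surround the core. Ndufb10 (ENSMUSG00000040048, chr17:24722060-24724423), an accessory subunit of the membrane arm, was measured at 95.1 and 73.0 CPM in SSC WT and 103 and 184 CPM in SSC KO, at 87.3 and 72.1 CPM in pBCSP WT and 122 and 123 CPM in pBCSP KO, and at 82.3 and 82.9 CPM in BCSP WT and 104 and 139 CPM in BCSP KO. All 6 KO libraries were higher than all 6 WT libraries, and the second SSC KO library was the highest. The average difference was 0.65 (log2, SE 0.18, 95% interval 0.24 to 1.06, edgeR adjusted p = 0.111). Without the second SSC KO library it was 0.48, and DESeq2 gave 0.64 with an adjusted p of 0.0412.

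Ndufs1 (ENSMUSG00000025968, chr1:63143592-63176822), the largest core subunit and a carrier of iron-sulphur clusters, was measured at 70.9 and 88.2 CPM in SSC WT and 59.6 and 31.8 CPM in SSC KO. In pBCSP it stood at 68.8 and 97.1 CPM in WT and 51.4 and 48.4 CPM in KO, and in BCSP at 69.9 and 79.2 CPM in WT and 68.5 and 49.2 CPM in KO. All 6 KO libraries were lower, by a narrow margin in the first BCSP KO library. The average difference was -0.62 (log2, SE 0.20, 95% interval -1.08 to -0.17, edgeR adjusted p = 0.146). It was -0.50 without the second SSC KO library. Ndufb10 and Ndufs1 thus moved apart within libraries: the log2 ratio of Ndufb10 to Ndufs1 lay between -0.43 and 0.42 in WT and between 0.60 and 2.54 in KO. The pair was taken as the ends of the complex I list, so this separation is a description.

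Ndufa2, an accessory subunit of the peripheral arm, was named for its mean CPM in complex I, which was not corrected for gene length. Its WT libraries were at 164, 148, 132, 136, 134 and 163 CPM and its KO libraries at 168, 200, 211, 193, 174 and 224 CPM, in the order SSC, pBCSP and BCSP. No KO library reached down to the WT range, and the difference was 0.42 (SE 0.14, edgeR adjusted p = 0.151). Ndufs3, a core subunit, had the smallest SE in complex I, with 83.3 to 97.7 CPM in WT and 89.0 to 111 CPM in KO. The 2 ranges overlapped, and the difference was 0.07 with a 95% interval of -0.22 to 0.35. Ndufa9, an accessory subunit near the ubiquinone site, had the largest spread of differences between populations of all members, 0.37 in SSC, -0.38 in pBCSP and -0.08 in BCSP. Its SSC value rests on the second KO library, at 156 CPM, where the first stood at 84.9 CPM and WT at 94.3 and 92.2 CPM.

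Other members of complex I are named after their values were seen. Ndufa6 (0.59) and the core subunit Ndufs8 (0.56) had the next highest differences, with edgeR adjusted p-values of 0.120 and 0.144. Ndufv1, the flavin-carrying core subunit that accepts electrons from NADH, had -0.45 (adjusted p = 0.216), and Ndufv2, its partner in the NADH-binding module, -0.27 (adjusted p = 0.316). Of the 5 core subunits, Ndufs1, Ndufv1 and Ndufv2 had negative and Ndufs3 and Ndufs8 positive differences, with a median of -0.27. Of the 10 accessory subunits, 8 were above 0, with a median of 0.35. Ndufa4, which is described with its paralog below, was counted in neither role. The remaining accessory subunits ran from -0.14 (Ndufb8) to 0.37 (Ndufa8). This split by role was noticed in the values, and no test was made of it.

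Complex II, succinate dehydrogenase, also belongs to the citric acid cycle, and all of its subunits are nuclear-encoded. Sdha, the flavoprotein, was measured at 150 to 218 CPM in WT and 192 to 235 CPM in KO, with a difference of 0.20 (SE 0.14, edgeR adjusted p = 0.463). Sdhc, a membrane anchor, was at 63.9, 50.1, 50.2, 48.0, 57.4 and 50.6 CPM in WT and 62.9, 70.4, 63.1, 52.5, 69.9 and 81.8 CPM in KO, in the order SSC, pBCSP and BCSP. Its groups overlapped, and the difference was 0.32 (adjusted p = 0.265). Sdhd, the other anchor, was at 162 to 260 CPM in WT and 146 to 239 CPM in KO, with a difference of -0.19 (adjusted p = 0.550). The iron-sulphur subunit Sdhb had -0.15, so the 4 subunits divided evenly in sign.

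Complex III passes electrons from ubiquinol to cytochrome c. Uqcrc1 (ENSMUSG00000025651, chr9:108936648-108949641), a core protein on the matrix side, was measured at 429 and 389 CPM in SSC WT and 344 and 281 CPM in SSC KO, at 446 and 428 CPM in pBCSP WT and 431 and 240 CPM in pBCSP KO, and at 380 and 473 CPM in BCSP WT and 336 and 316 CPM in BCSP KO. All 6 KO libraries were below the WT mean of their population. The ranges overlapped through the first pBCSP KO library. The difference was near -0.39 in all 3 populations, and on average -0.39 (SE 0.17, 95% interval -0.77 to 0.00, edgeR adjusted p = 0.257).

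Uqcrb, a small subunit at the ubiquinone site, was measured at 114 and 110 CPM in SSC WT and 142 and 169 CPM in SSC KO, at 104 and 113 CPM in pBCSP WT and 94.6 and 106 CPM in pBCSP KO, and at 102 and 115 CPM in BCSP WT and 143 and 150 CPM in BCSP KO. KO libraries were higher in SSC and BCSP and within or below the WT range in pBCSP. The average difference was 0.26 (SE 0.13, edgeR adjusted p = 0.286). Uqcrfs1, the Rieske iron-sulphur protein, had -0.30, Cyc1, cytochrome c1, -0.12, and Uqcrc2 and Uqcrq -0.01 and 0.06. Cycs, the mobile carrier cytochrome c, had the largest coefficient of variation of all members, at 0.343. It stood at 143 and 59.5 CPM in pBCSP KO against 180 and 156 CPM in pBCSP WT, and on average differed by -0.27 (SE 0.25). Cycs has processed pseudogenes, so its counts are uncertain. Summed over complex III and Cycs, the second pBCSP KO library was the lowest of 12 at 820 CPM, where the other 11 lay between 1061 and 1294 CPM.

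Complex IV, cytochrome c oxidase, reduces oxygen to water. Cox4i1 (ENSMUSG00000031818, chr8:120668225-120674209), the ubiquitous form of subunit IV, was measured at 476, 436, 373, 410, 428 and 490 CPM in WT and 426, 466, 494, 348, 390 and 425 CPM in KO, in the order SSC, pBCSP and BCSP. The groups overlapped, with a difference of -0.03 and a 95% interval of -0.35 to 0.28. Cox7a2 was at 118 to 148 CPM in WT and 149 to 184 CPM in KO, with no overlap, and differed by 0.34 (SE 0.13, edgeR adjusted p = 0.200). Cox8a was at 114 to 163 CPM in WT and 147 to 204 CPM in KO, and differed by 0.35 (adjusted p = 0.211).

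Cox5a was the lowest of complex IV, at -0.33 (SE 0.20, edgeR adjusted p = 0.392). Its 2 low libraries were the second replicates of SSC KO and pBCSP KO, at 21.1 and 24.3 CPM, while the other 4 KO libraries, at 35.4 to 42.7 CPM, lay close to or within the WT range of 38.4 to 46.4 CPM. Cox7b (0.32), Cox6a1 (0.26), Cox5b (0.18) and Cox6c (0.00) make up the list. Cox5b and Cox6c have pseudogenes or close copies in RefSeq, and their counts are uncertain to that extent.

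Complex V makes ATP in its F1 head, which is joined to the membrane part by a central and a peripheral stalk. Atp5b (ENSMUSG00000025393, chr10:128083307-128090388), the catalytic beta subunit, was measured at 827, 734, 656, 699, 657 and 746 CPM in WT and 784, 768, 765, 549, 752 and 710 CPM in KO, in the order SSC, pBCSP and BCSP. WT and KO overlapped, and the difference was 0.00 with a 95% interval of -0.31 to 0.32. Atp5a1, the alpha subunit beside it in the head, was at 399 to 542 CPM in WT and 318 to 515 CPM in KO, with a difference of -0.20 (SE 0.17, edgeR adjusted p = 0.553).

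Atp5j (ENSMUSG00000022890, chr16:84827871-84835857), coupling factor 6 of the peripheral stalk, was measured at 172 and 122 CPM in SSC WT and 194 and 305 CPM in SSC KO. In pBCSP it stood at 167 and 139 CPM in WT and 184 and 199 CPM in KO, and in BCSP at 145 and 154 CPM in WT and 184 and 212 CPM in KO. All 6 KO libraries were higher, with the second SSC KO library the highest, and the average difference was 0.50 (SE 0.17, edgeR adjusted p = 0.153). Without that library it was 0.37. Atp5d and Atp5c1, the delta and gamma subunits of the central stalk, had 0.45 and 0.40 (adjusted p = 0.172 and 0.174), and Atp5o, of the peripheral stalk, 0.25. The second SSC KO library was also the highest of 12 for Atp5d, at 255 CPM against 113 to 181 CPM in the others, and for Atp5c1, at 415 CPM against 216 to 324 CPM. Over complex V its median difference from WT was 0.63, where the other 5 KO libraries had 0.13 to 0.43. Atp5c1 has a processed pseudogene, and its counts are uncertain to that extent. The 4 stalk subunits thus had differences of 0.25 to 0.50 and the alpha and beta subunits -0.20 and 0.00, a division seen in the values and not tested.

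Within each population, KO was compared with WT over 2 libraries each. By edgeR, 0 of 41 members passed in SSC, pBCSP or BCSP, as did 0% of all genes in each, and DESeq2 passed 0 members in each. At an unadjusted p under 0.05 there were 3, 3 and 5 members, against 9.39%, 6.27% and 6.26% of all genes, and the smallest adjusted p-values were 0.524, 0.780 and 0.711. For 29, 27 and 27 members the 95% interval lay within 2-fold, as it did for 9.99%, 10.2% and 10.3% of all genes. Of 40 cytosolic ribosome genes, 37, 33 and 31 had such an interval. The member median was 0.13 in SSC, 0.06 in pBCSP and 0.19 in BCSP, against -0.22, -0.03 and -0.01 for all genes. The negative median of all genes in SSC goes with the second SSC KO library, whose own median was -0.68. Whether the genotype difference itself varied between populations was tested for each member by an F test in edgeR. No member passed (0% of all genes), 0 had an unadjusted p under 0.05, and DESeq2 also passed 0.

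Leaving out the first SSC KO library, which leaves the second alone in its group, changed these counts. By edgeR 9 members then passed on average, against 32% of all genes tested, with Ndufs1 at -0.79 and Ndufb10 at 0.78, and 4 passed in SSC (Ndufb10, Ndufs1, Atp5d and Atp5j), against 30.7%. The lone library is the one with 13987 genes, and its group is then assumed to vary like the others.

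Among WT libraries the 3 populations were compared in the same fit. No member passed between pBCSP and SSC, BCSP and pBCSP, or BCSP and SSC by edgeR (0% of all genes in each), and DESeq2 passed 0. At an unadjusted p under 0.05 there were 0 members in each, against 1.89%, 2.62% and 3.48% of all genes. The member medians were -0.08, 0.01 and -0.08, against 0.02, -0.03 and -0.05 for all genes. By size, the largest member differences were -0.34 for Cox8a in pBCSP against SSC, -0.34 for Cycs in BCSP against pBCSP and -0.36 for Ndufa1 in BCSP against SSC. For 40, 40 and 41 of 41 members the 95% interval lay within 2-fold, as it did for 15.4%, 13% and 13.8% of all genes. Of 40 cytosolic ribosome genes, 36, 39 and 38 had such an interval.

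The rest of the pathway gives the frame for these values. The 37 other nuclear subunits had a median of 0.32 with 32 above 0. None passed by edgeR. Of the 37, 19 had an unadjusted p under 0.05, against 19.6% of all genes, and 11 had every KO library above every WT library, against 3.08%. The smallest p was that of Atpif1, the inhibitor protein of ATP synthase, at 53.6 to 78.5 CPM in WT and 95.5 to 162 CPM in KO, a difference of 0.71 (adjusted p = 0.0742). Of 42 assembly factors tested, 1 passed, against 1.17% of all genes, and 30 were above 0 with a median of 0.34. Their median difference from WT was -0.17, 0.03 and 0.06 in the first KO libraries of SSC, pBCSP and BCSP. In the second KO libraries it was 0.67, 0.62 and 0.53, so the rise was seen in the second replicates only. The gene that passed was Cox14, which acts in the assembly of complex IV. Cox14 stood at 72.7 to 108 CPM in WT and 130 to 239 CPM in KO, with a difference of 1.12 (SE 0.21, edgeR adjusted p = 0.0490). With 1 library left out, Cox14 passed in 2 of 12 cases, without the first SSC KO or the first BCSP KO library.

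Of 9 tissue-restricted isoforms of subunits, 6 could be tested. On average 2 passed as higher by edgeR (Cox4i2 and Ndufa4l2), 3 were above 0 and 3 below, and the median was 0.44. Of the other 4 tested, Cox6b2 had 0.91 (adjusted p = 0.248), Cox8b -0.03, Cox7a1 -0.68 and Cox6a2 -1.16, all at low levels (12.4 CPM or less in every library). Cox4i2 and Ndufa4l2 are isoforms known to be induced at low oxygen and paralogs of Cox4i1 and Ndufa4. Ndufa4 was first assigned to complex I, where the list has it, and later placed in complex IV. It was measured at 116 and 95.5 CPM in SSC WT and 86.5 and 69.2 CPM in SSC KO, at 96.7 and 89.3 CPM in pBCSP WT and 83.4 and 71.3 CPM in pBCSP KO, and at 110 and 104 CPM in BCSP WT and 104 and 108 CPM in BCSP KO. WT and KO overlapped through BCSP, and the average difference was -0.24 (SE 0.14, edgeR adjusted p = 0.357). Ndufa4l2 stood at 231, 181, 288, 254, 131 and 197 CPM in WT and at 718, 1766, 1084, 1379, 509 and 1107 CPM in KO, in the order SSC, pBCSP and BCSP. It rose by 2.36 (log2, SE 0.29, edgeR adjusted p = 0.0244), and all 6 KO libraries were above all 6 WT libraries.

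Cox4i2 stood at 38.4, 30.1, 42.4, 39.2, 19.1 and 21.2 CPM in WT and at 88.9, 228, 106, 127, 87.4 and 139 CPM in KO, in the same order. It rose by 2.07 (SE 0.25, edgeR adjusted p = 0.0244), again with no overlap, while the groups of Cox4i1 overlapped. The log2 ratio of Ndufa4l2 to Ndufa4 was 0.25 to 1.57 in WT and 2.29 to 4.67 in KO, and that of Cox4i2 to Cox4i1 -4.53 to -3.14 in WT and -2.26 to -1.03 in KO. The changes in ratio were 2.53 and 2.05, and without the second SSC KO library 2.26 and 1.84. With 1 library left out, the calls of Cox4i2 and Ndufa4l2 were kept in 4 of 12 cases (either SSC KO library, or the first pBCSP or BCSP KO library) and lost in the other 8, where 0 of all genes passed by edgeR. The differences ran from 1.79 to 2.26 and from 2.09 to 2.54. Both pairs were in view from earlier results of these data when they were chosen, so their ratios are a description, with no test. With counts summed over populations, or with pBCSP and BCSP only, 0 of all genes passed on average.

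**Figure D4:**
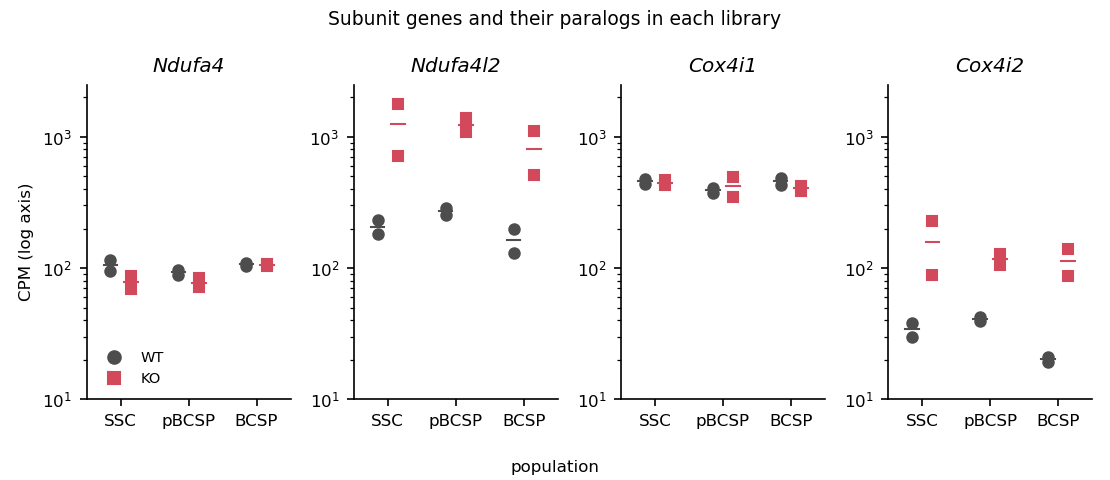
CPM (log axis) of Ndufa4, its paralog Ndufa4l2, Cox4i1 and its paralog Cox4i2 in each RNA library by population; circles are WT, squares KO, 2 libraries per group, and short bars are group means. Squares of Ndufa4l2 (509 to 1766 CPM) and Cox4i2 (87.4 to 228 CPM) all lie above the circles, while those of Cox4i1 overlap them.

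Mitochondrially encoded subunits were measured at their lowest in pBCSP KO. Summed over 13 genes, they stood at 6450 and 5507 CPM in pBCSP WT and 2936 and 2934 CPM in pBCSP KO. In SSC the sums were 5519 and 4965 CPM in WT and 6250 and 4378 CPM in KO, and in BCSP 5107 and 4843 CPM in WT and 6131 and 4682 CPM in KO. The pBCSP KO libraries were the 2 lowest of 12, and all 12 mitochondrial genes tested had a lower estimate there. By edgeR none passed in pBCSP (smallest adjusted p = 0.740) or between populations, where 0% of all genes passed. None passed on average, where 1.17% of all genes did. At an unadjusted p under 0.05 there were 6 of the 12 in pBCSP, against 6.27% of all genes, and 1 on average, against 19.6%. The smallest unadjusted p on average was that of mt-Cytb, which encodes cytochrome b of complex III. It stood at 2958 and 2130 CPM in pBCSP WT and 1128 and 1114 CPM in pBCSP KO, with an average difference of -0.42 (adjusted p = 0.191). Libraries were made from RNA bound to oligo(dT) beads, and mt-Co2 and mt-Co3 were counted at mean levels of 1.39 and 1.54 CPM in WT, so these counts are uncertain.

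Regulators of mitochondrial content had 0 of 14 tested genes past the threshold, with a median of -0.03. Ppargc1a, a coactivator of mitochondrial genes, was at 0.489 to 5.85 CPM in WT and 1.64 to 8.93 CPM in KO (difference 0.18, edgeR adjusted p = 0.888). Tfam, which packages and transcribes mitochondrial DNA, was at 14.1 to 20.4 CPM in WT and 14.8 to 37.1 CPM in KO (difference 0.42, adjusted p = 0.415). Tfb1m had the smallest p, with a difference of 1.64 (adjusted p = 0.218). None of 13 citric acid cycle genes (median -0.01) and none of 35 mitochondrial ribosome genes (median 0.07) passed by edgeR. Among them Sucla2, a subunit of succinyl-CoA synthetase, had -0.63 (adjusted p = 0.0834) and Mrps21 0.82 (adjusted p = 0.0521).

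In glycolysis, which makes ATP without oxygen, 11 of 16 genes passed as higher and none as lower, where 0.966% of all genes passed as higher, and a median of 1.32. These calls, like those of the chondrocyte markers, were lost in 8 of 12 fits that left out 1 library, where 0 of all genes passed. Pfkl, the liver form of phosphofructokinase, rose by 2.42 (SE 0.42, edgeR adjusted p = 0.0421), Aldoc by 2.37, Tpi1 by 2.18 and Eno1 by 1.72. Cytosolic ribosome genes, a list outside the mitochondrion, had 0 of 40 past the threshold by edgeR and a median of 0.15, where the members had 0.16. The smallest p among them was that of Rpl28, with a difference of 0.43 (adjusted p = 0.177). In the 6 KO libraries the member median ran from 0.00 to 0.31 and that of glycolysis from 0.96 to 1.77.

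**Figure D5:**
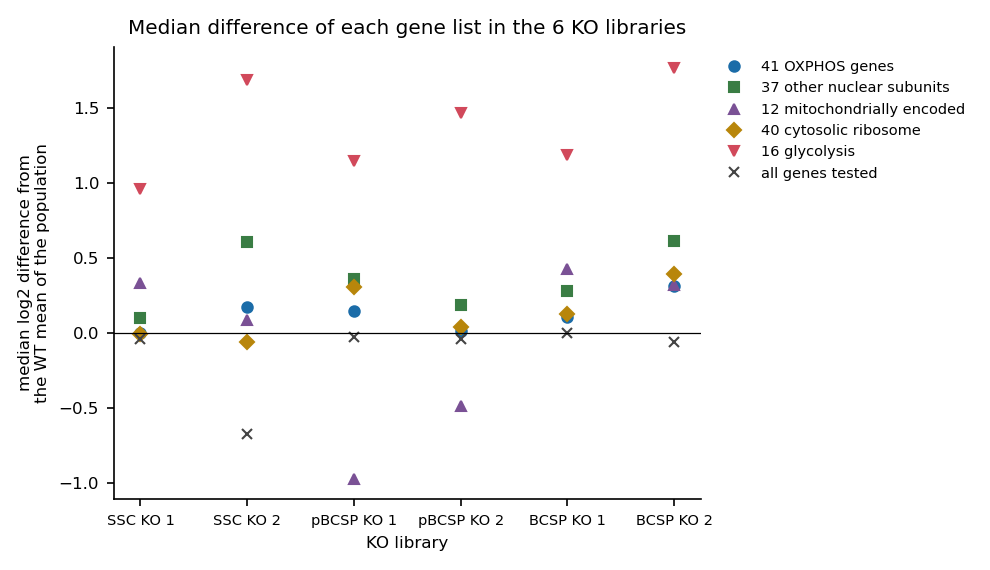
Median log2 difference of 6 gene lists from the WT mean of the same population (vertical axis) in each KO library (horizontal axis); each symbol is 1 list. Members lie at 0.00 to 0.31, glycolysis lies at 0.96 to 1.77, and mitochondrially encoded genes are at -0.97 and -0.49 in pBCSP KO.

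Markers of cell types were counted in the same libraries. Chondrocyte markers had 10 of 16 genes higher by edgeR and none lower, where 0.966% of all genes passed as higher. As said above, these calls did not hold in most fits that left out 1 library. The sum of the chondrocyte markers was 39330 to 109500 CPM in WT and 75830 to 124600 CPM in KO. None of the osteoblast (9 tested), skeletal muscle (9), erythroid (8), leukocyte (5), osteoclast (3), endothelial (7) and adipocyte (4) markers passed. Erythroid markers summed to 22.9 to 261 CPM in WT and 2.62 to 31.9 CPM in KO, and muscle markers to 42.8 to 676 CPM in WT and 53.5 to 500 CPM in KO. Osteoblast markers summed to 15870 and 14860 CPM in SSC WT and 8464 and 7286 CPM in SSC KO. In pBCSP they summed to 23210 and 22370 CPM in WT and 18760 and 8462 CPM in KO. The BCSP sums were 36520 and 41440 CPM in WT and 20940 and 9070 CPM in KO. Both KO libraries were thus below both WT libraries in each population. In WT against KO, the sums were 2.75 to 16.3 against 7.62 to 33.0 CPM for leukocytes, 103 to 295 against 42.6 to 126 CPM for osteoclasts, 9.91 to 51.0 against 5.65 to 30.3 CPM for endothelium, and 25.3 to 289 against 8.09 to 163 CPM for adipocytes. All ranges here run over 3 populations that differ among themselves. Muscle markers, for example, summed to 84.2 and 42.8 CPM in SSC WT and 445 and 676 CPM in BCSP WT. No marker was at 0 in every library. The part of these cells in the values of the members was not tested, and in sorted bulk samples fewer cells of a type and less RNA per cell cannot be told apart.

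The members did not all vary together over the 12 libraries. The Pearson correlation of a member's log2 CPM with the median of the other members ran from -0.49 (Ndufs1) to 0.85 (Cox5b and Cox6a1), with a median of 0.47 over 41 genes. Outside all lists, the 3 genes most like the member median were Sf3b5 (0.91), Mrpl30 (0.90) and Naca (0.89). These are descriptions over 12 libraries that share their scaling and sequencing depth.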

How the data were processed

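RNA was measured as read counts per Ensembl gene in 12 libraries, deposited by the authors without normalisation, with 15495915 to 22670899 counts each. Of 55487 IDs, 55141 were paired with a symbol. ChIP was deposited by the authors as 24 peak lists, 1 per library, with a score, a fold enrichment ratio, and a -log10 p and -log10 q per peak. The 12 input libraries were not used here. Per the submitters' processing notes, the build was GRCm38, and the tools included featureCounts 2.0.1, MACS2 2.2.6, Bowtie2 2.3.5.1, SAMtools 1.9 and Trim Galore 0.6.6. Settings, annotation, strand and the treatment of shared reads: not given in the sources used here. Therefore overlapping and antisense genes and near-identical copies cannot be told apart.

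With edgeR 4.0.16, all 12 libraries entered 1 model with 6 group means (R 4.3.3): TMM scaling, filterByExpr defaults, quasi-likelihood test, 6 residual and 3.38 prior degrees of freedom, common biological coefficient of variation 0.605, and Benjamini-Hochberg adjustment over 17494 genes. The average weighs the 3 populations equally. Peaks within 1000 bases of a RefSeq start were counted. Gene positions are from RefSeq, and levels were not compared between genes per length, since the reference tables used here hold gene spans, not transcript lengths.

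The members and gene lists were chosen with earlier results of these data known. Values are printed for members that passed, for the members of each complex with the highest CPM, highest and lowest average difference and smallest SE, for the largest spread between populations, and for list genes that passed (up to 4) or had the smallest p; Paxip1, Cox4i2, Ndufa4l2, Ppargc1a and Tfam were fixed by name. Other members were named after their values were seen. Alternatives were DESeq2 1.42.0, other scalings and filters, fits without 1 library or without SSC, sums over populations, a replicate block, and other peak distances and thresholds. Pairing was checked by the correlation of same-numbered libraries. Of the 5 genes most like the member median, the first 3 are given and the other 2 are not reported here.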

Additional observations from a re-analysis of the deposited data

Results flagged for a closer look

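In 2 members both KO libraries of 1 population lay above the WT mean and both of another lay below it, a pattern also seen in 16.9% of all genes tested. Uqcrb differed by 0.47 in SSC and 0.43 in BCSP against -0.11 in pBCSP (log2, KO minus WT). Ndufs3 differed by -0.0326 in SSC and 0.0648 in pBCSP. The F test in edgeR for a difference between populations gave an adjusted p of 1.00 for both and an unadjusted p of 0.161 for Uqcrb and 0.826 for Ndufs3.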

How the results depend on the processing

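Member counts past the threshold changed under DESeq2, with 2 on average, and without 1 library, with 0 to 9 on average and 0 to 4 in SSC. Member medians without 1 library ranged from -0.0257 (without the second SSC WT library) to 0.28 (without the first) in SSC, from 0.06 to 0.18 on average, from 0.0096 (without the first pBCSP KO library) to 0.15 (without the second) in pBCSP, and from 0.10 (without the second BCSP KO library) to 0.28 (without the second BCSP WT library) in BCSP. Counts over all genes moved more. DESeq2 gave 1693 on average, 151 in SSC, 91 in pBCSP, 108 in BCSP, 3 between populations, and 38, 28 and 70 for WT pBCSP against SSC, BCSP against pBCSP and BCSP against SSC. No filter on low counts gave 1882, 395, 260, 337, 50, 133, 107 and 246 in the same order, and the stricter filter gave 328 on average and 2 for WT BCSP against SSC. Using pBCSP and BCSP only, or summing over populations, gave 0 on average. Without 1 library, all-gene counts ranged from 0 to 6147 on average, 0 to 5908 in SSC, 0 to 2082 between populations and 0 to 2 for WT BCSP against SSC. Leaving out a library also lets more genes through the filter, and the highest counts came without the first SSC KO library. H3K4me1 in every library fell to 0 members when a peak had to cover the start base, against 8.37% of all genes with a start. It also fell to 0 members at a fold of 5, where 0% of all genes had such a peak. H3K27ac fell to 9, 12 and 4 of 31 members for the start base, a fold of 5 and both replicates of a group. The shares of all genes were 18.9%, 24.9% and 15.1% in the same order.

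Same-numbered WT and KO libraries correlated at 0.01, -0.02 and -0.08, so no pairing of genotypes by number was seen. With 2 libraries per group, these values cannot show that same-numbered samples were handled apart. With a replicate block, 0 members passed on average, and the member median was 0.15. Within a genotype, same-numbered populations correlated at 0.28 to 0.49. The average over populations treats these libraries as independent, so its SEs, intervals and p-values may be too narrow. A replicate block within genotype, chosen after seeing the data, gave 28 genes for WT BCSP against SSC and 0 members in the comparisons between populations, for which it was fitted. Cox4i2 and Ndufa4l2 kept their direction in 20 of 20 alternatives, at 1.79 to 2.26 and 2.09 to 2.54, and passed in 10. Cox14 passed in 5 of 20.

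With 2 libraries per group, the 95% interval of a difference within 1 population lay inside 2-fold for 9.99% to 10.3% of all genes.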
